A study of Mus musculus with 6 samples.

Results

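The 10 genes described here encode enzymes of glycolysis: Hk1, Hk2, Gpi1, Pfkl, Pfkp, Aldoa, Pgk1, Pgk2, Pkm and Ldha. They were chosen by gene name, with no use of measured values, and correspond to 11 of the 32285 rows of the count table because 2 rows carry the name Aldoa. Germline stem (GS) cells, a culture of spermatogonia that can act as stem cells, were derived from the testes of pups at 2 to 3 days of age. Both groups carry an EGFP transgene driven by an actin promoter, with the genotype given as DBA/Tg14(act-EGFP-OsbY01) and the strain as DBA/2, and the line of origin, C57BL6/Tg14(act-EGFP-OsbY01), had been crossed into DBA/2. They were grown on mouse embryonic fibroblast feeders with GDNF and FGF2, kept frozen over 6 months in orbit on the ISS (Space, 3 libraries) or on Earth (Ground, 3 libraries), thawed, and collected for poly(A) RNA sequencing 1 day later. The groups follow the library titles. The treatment label says the opposite of the title in all 6 libraries, so every direction below would change sign if that label were right. The submitters speak of biological replicates and the study of separate lines, 3 per group, but which Space and Ground libraries share a line was not given in the sources used here, and the p-values measure the spread between these libraries.

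Glycolysis splits glucose into pyruvate. Hexokinases trap glucose as glucose 6-phosphate, phosphofructokinases commit it to breakdown, phosphoglycerate kinases and pyruvate kinase return ATP, and lactate dehydrogenase converts pyruvate to lactate while restoring NAD+. Most steps have several isozymes encoded by different genes, and male germ cells add forms of their own. Pgk2 is the best known of these. It is an intronless copy of the X-linked Pgk1, and it is transcribed in meiotic and later germ cells, in which the X chromosome is silenced. Spermatogonia depend on glycolysis more than germ cells in meiosis do. Hypoxia-inducible factors, which bind a short ACGTG core, are known activators of several of these genes.

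The libraries held 19015985 to 24110916 counts, and mitochondrially encoded genes took between 2.51% and 11.5% of them. Values are CPM, counts relative to a library size scaled by TMM (the trimmed mean of M-values), unless another unit is given. Germ cell markers were present in every library: the 9 genes listed for undifferentiated spermatogonia summed to 1453 to 2035 CPM of the library total in Ground and 1544 to 2054 in Space. The spermatid genes Prm2 and Tnp2 had 0 counts in all 6 libraries, and 5 of the 7 listed spermatid genes stayed under 1 CPM in each. The 18 feeder fibroblast genes summed to 1049 to 1163 CPM in Ground and to 869 to 1115 in Space. Feeder cells use the same glycolytic enzymes, and in bulk RNA fewer cells of a type and less RNA per cell cannot be told apart.

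Between Space and Ground, no glycolysis gene passed the test. Of the 10 genes, 9 passed the filter on low counts, and 0 of these 9 were called by edgeR at an adjusted p under 0.05, beside 0% of the 15104 genes tested. At an unadjusted p under 0.05 the number was also 0 of 9, beside 0.609% of all genes, and both DESeq2 and limma-voom called 0 of 9. Evenly spread p-values would put a share of 0.05 of all genes under that level, so the fit may be conservative. The lack of calls does not show that the groups are alike. The groups overlapped for all 9, while they did not overlap for 3.59% of all genes. Pkm, Gpi1 and Aldoa had the narrowest ranges over the 6 libraries, at 1.09-fold, 1.15-fold and 1.26-fold. Hk1, Hk2, Pfkl, Pfkp and Ldha differed more, by 1.47-fold to 1.72-fold between their highest and lowest library, in orders that did not follow the groups.

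**Figure D1:**
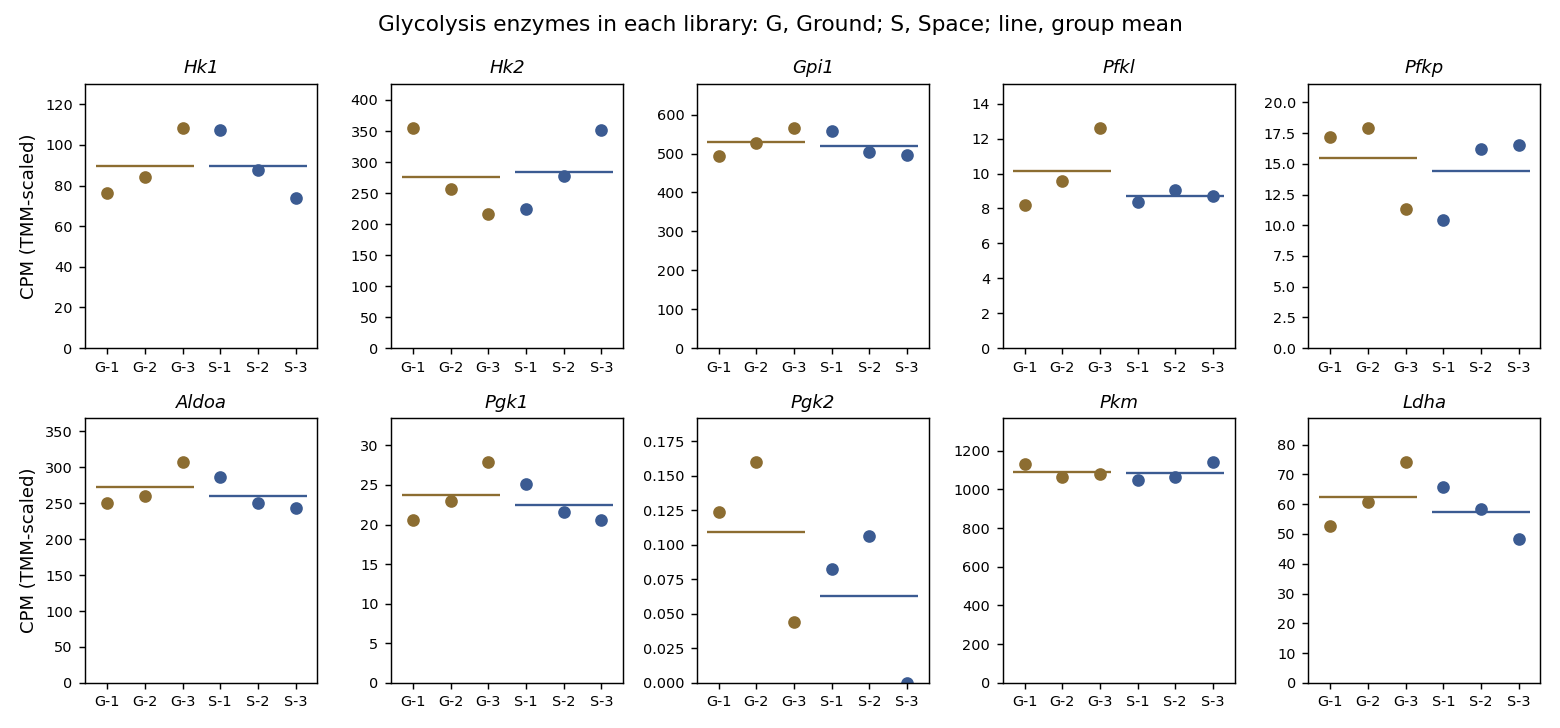
TMM-scaled CPM (vertical axis, from 0) of the 10 genes in each Ground (G) and Space (S) library, with a horizontal line at each group mean (n = 3). The 2 groups overlap in every panel; Hk1 and Hk2 run in opposite order over the libraries, and Pgk2 lies below 0.16 CPM throughout.

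Hexokinases open the pathway. Hk2, the inducible form (chr6:82725025-82774454, minus strand), stood at 355.3, 256.9 and 215.8 CPM in the Ground libraries, listed from the library numbered 1 to that numbered 3 here and below, and at 224.6, 277.1 and 350.9 CPM in the Space libraries. Both groups spanned nearly the same interval, with Ground-1 and Space-3 high and Ground-3 and Space-1 low. The log2 fold change, Space minus Ground, was 0.04 (SE 0.21, 95% interval -0.44 to 0.52). Hk1, the form found in most tissues (chr10:62268855-62379908, minus strand), went the other way. It stood at 76.2, 84.2 and 108.5 CPM in Ground and at 107.3, 87.7 and 73.7 in Space. Ground-3 and Space-1 were high, Ground-1 and Space-3 low, and the groups overlapped almost completely (log2 fold change -0.0015, SE 0.17, 95% interval -0.38 to 0.38). Counting error was at most 2.51% of a Hk1 value and 1.44% of a Hk2 value, far below these differences between libraries.

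The ratio of Hk2 to Hk1 counts does not depend on how libraries are scaled. In Ground the ratio was 4.66 (95% counting interval 4.43 to 4.90), 3.05 (2.88 to 3.23) and 1.99 (1.90 to 2.09). In Space it was 2.09 (2.00 to 2.19), 3.16 (2.99 to 3.34) and 4.76 (4.53 to 5.01). The ratio thus differed within each group by more than counting error, and the group means lay close together, at 3.23 ± 1.34 in Ground and 3.34 ± 1.34 in Space (SD, n = 3). These intervals cover counting error only.

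The Hk2 promoter is shown because Hk2 had the widest range over the libraries after Pfkp and because its 250 bases before the RefSeq start hold the hypoxia core. The window is chr6:82774455-82774704 on the minus strand (GRCm38.p6, RefSeq), printed 5′ to 3′, and capitals mark ACGTG or its reverse complement:
Hk2: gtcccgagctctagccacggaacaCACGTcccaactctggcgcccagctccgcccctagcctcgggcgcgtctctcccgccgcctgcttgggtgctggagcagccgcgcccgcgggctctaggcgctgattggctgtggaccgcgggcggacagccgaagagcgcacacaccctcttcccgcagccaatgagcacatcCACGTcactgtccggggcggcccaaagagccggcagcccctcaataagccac
It held 2 such cores. All 10 genes could be matched to RefSeq starts, 15 starts in all, and ACGTG was found on either strand before 6 of these 15, belonging to Aldoa, Hk2, Ldha, Pgk1 and Pkm. The Aldoa starts among these 6 have overlapping windows that hold the same site, so the starts are not independent. The core occurs before 16.6% of the 32851 RefSeq starts. Of these genes, Hk2 and Pkm were highest in Ground-1 and Space-3, and Aldoa, Pgk1 and Ldha in Ground-3 and Space-1. The part of hypoxia-inducible factors in these orders was not tested. A match describes letters in a window and not a bound site.

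Gpi1, which turns glucose 6-phosphate into fructose 6-phosphate (chr7:34201330-34230336, minus strand), was at 493.0, 525.9 and 566.3 CPM in Ground and at 558.0, 504.6 and 496.1 in Space. Its range was narrow, 1.15-fold, with Ground-3 and Space-1 again on top and the groups overlapping. The log2 fold change was -0.02 (SE 0.07, 95% interval -0.20 to 0.15).

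The phosphofructokinases among the 10 genes were weakly expressed. Pfkl, the liver form (chr10:77986947-78010083, minus strand), was at 8.19, 9.58 and 12.6 CPM in Ground and at 8.36, 9.06 and 8.72 in Space. Ground-3 alone stood above the other 5 libraries, and Ground-1 was below all 3 Space libraries. Pfkl had the smallest p of the 9 genes, with a log2 fold change of -0.22 (SE 0.18, 95% interval -0.63 to 0.19, edgeR unadjusted p = 0.254), and the fold change was -0.02 without Ground-3. Pfkp, the platelet form (chr13:6579768-6648777, minus strand), was at 17.2, 17.9 and 11.3 CPM in Ground and at 10.5, 16.2 and 16.6 in Space. Ground-3 and Space-1 were low and the other 4 libraries close together, so that each group held 1 low and 2 high libraries (log2 fold change -0.10, SE 0.23, 95% interval -0.64 to 0.43). Pfkp shares 748 exonic bases with Pitrm1 on the opposite strand. The strand setting of the counting was not given in the sources used here, so some Pfkp counts may belong to Pitrm1.

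Aldoa cleaves fructose 1,6-bisphosphate into trioses (chr7:126795234-126800751, minus strand). The Ground libraries had 249.8, 260.3 and 306.9 CPM and the Space libraries 287.2, 249.8 and 243.6 CPM. Ground-3 and Space-1 were the highest, and the groups overlapped (log2 fold change -0.07, SE 0.10, 95% interval -0.29 to 0.16). The second row named Aldoa, ENSMUSG00000114515, lies just upstream (chr7:126800790-126809108), had between 2 and 9 counts per library and did not pass the filter.

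Pgk1 (chrX:106187100-106203699, plus strand), the phosphoglycerate kinase of most cells, was at 20.5, 22.9 and 27.8 CPM in Ground and at 25.1, 21.6 and 20.6 in Space. Ground-3 was highest, Space-1 next, and the groups overlapped (log2 fold change -0.08, SE 0.14, 95% interval -0.40 to 0.23). The level of Pgk1 is uncertain. Of the 76-base windows of its longest coding transcript, 67.5% occur letter for letter in at least 1 of 6 other annotated genes, mainly the processed pseudogenes Pgk1-rs7 and Gm5537. None of these 6 is a row of the table. How reads shared between genes were counted was not given in the sources used here.

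Pgk2 (chr17:40207015-40208640, minus strand) was close to the detection limit. The Ground libraries had 3, 3 and 1 counts and the Space libraries 2, 2 and 0, in all 11 counts. No library stood apart beyond counting error: the exact Poisson interval of 3 counts was 0.619 to 8.77 counts, and that of the 0 in Space-3 reached 3.69 counts (0.154 CPM of that library). Summed, Space had 4 counts and Ground 7, a depth-corrected ratio of 0.567 with a 95% interval of 0.122 to 2.23 that covers counting error only. A difference in Pgk2 smaller than these bounds was not detectable at this depth. No 76-base window of the single-exon Pgk2 transcript matches another annotated gene with 3 or fewer mismatches, Pgk1 and its pseudogenes included.

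The Pgk2 promoter is shown for contrast with that of Hk2. Of the 250 bases before its RefSeq start, chr17:40208610-40208859 on the minus strand (GRCm38.p6), the 219 that lie before the gene model of GENCODE M21 are printed, chr17:40208641-40208859:
Pgk2: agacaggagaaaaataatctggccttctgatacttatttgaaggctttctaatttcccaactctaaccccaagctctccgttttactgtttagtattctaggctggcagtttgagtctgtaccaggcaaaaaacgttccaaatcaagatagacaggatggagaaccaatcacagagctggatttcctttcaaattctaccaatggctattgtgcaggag
The 250-base window has a GC content of 42.0%, against 69.6% for Hk2. It holds no ACGTG, no CCGCCC (a GC box, before 32.7% of all starts) and no TATAAA (12.4%), both strands searched.

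The genes listed as germ cell forms were not uniformly low, but the highest, Pdha2 and Slc2a3, are not enzymes of glycolysis itself. Of the 9 genes so listed, Pgk2 included, 4 passed the filter, and 0 were called. Pdha2, a testis form of the pyruvate dehydrogenase subunit and also a single-exon gene, was at 29.6 to 36.9 CPM. Slc2a3, a glucose transporter of high affinity that is also listed under transport, was at 47.7 to 63.7 CPM. Ldhc, the testis lactate dehydrogenase, was at 3.29 to 7.40 CPM and Eno4, an enolase of sperm, at 5.04 to 7.04. Gapdhs, the sperm glyceraldehyde 3-phosphate dehydrogenase, reached 0.11 CPM at most, and the aldolase copies Aldoart1 and Aldoart2 reached 0.05 and 0.29. Pgk2 lay with Gapdhs and the aldolase copies, and the 7 listed spermatid genes together summed to only 4.42 to 6.25 CPM of the library total. The 7 spermatocyte genes summed to 243 to 276 CPM, and their part in the low level of Pgk2 was not tested.

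Pkm, pyruvate kinase (chr9:59656368-59679375, plus strand), was the most abundant of the 10 genes. Its values were 1130, 1064 and 1079 CPM in Ground and 1047, 1065 and 1139 CPM in Space. The 6 values lay within 1.09-fold, the narrowest range of the 9 tested genes, and the groups overlapped (log2 fold change -0.01, SE 0.06, 95% interval -0.15 to 0.13). The count table has 1 value for the gene and does not separate its 2 splice forms.

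Ldha (chr7:46841475-46855627, plus strand) closes the pathway. Its values were 52.7, 60.8 and 74.0 CPM in Ground and 65.6, 58.4 and 48.4 CPM in Space. Ground-3 was highest and Space-3 lowest, and the groups overlapped (log2 fold change -0.12, SE 0.15, 95% interval -0.46 to 0.22). Its promoter is shown because it holds the most hypoxia cores of the 15 starts. Ldha ran opposite to Hk2 over the libraries, and the cause was not tested. The window chr7:46845554-46845803 (plus strand, GRCm38.p6, RefSeq) precedes 1 of the 2 Ldha starts, and capitals again mark ACGTG on either strand:
Ldha: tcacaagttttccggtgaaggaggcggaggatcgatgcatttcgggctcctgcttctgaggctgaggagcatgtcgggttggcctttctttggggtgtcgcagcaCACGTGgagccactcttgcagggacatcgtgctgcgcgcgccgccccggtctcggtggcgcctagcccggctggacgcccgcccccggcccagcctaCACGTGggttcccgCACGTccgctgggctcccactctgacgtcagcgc
It held 5 matches, 4 of which come from 2 copies of the palindrome CACGTG, an E-box that is read on both strands and occurs before 6.02% of all starts. The other Ldha start, preceded by chr7:46846832-46847081, had none.

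**Figure D2:**
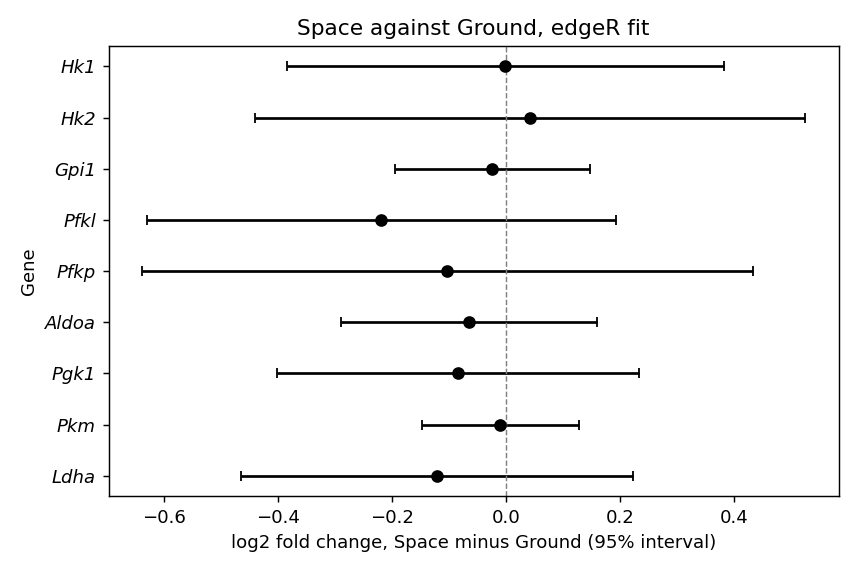
Log2 fold change, Space minus Ground, of the 9 tested genes from the edgeR fit, with 95% intervals as bars (n = 3 per group). All 9 intervals include 0; the widest are those of Pfkp and Hk2, and the narrowest that of Pkm.

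As a group, 1 of the 9 tested genes was higher in Space and 8 were lower, none past the test, with a median log2 fold change of -0.07 beside -0.0020 for all 15104 genes, of which 48.7% were higher in Space. The split depended on scaling and on 1 library: it was 4 higher and 5 lower with library totals, which put the median of all genes at 0.033, and 5 higher and 4 lower without Ground-3. These fold changes are not 9 separate observations, since most of the genes moved together over the same 6 libraries. The intervals bound what a difference could be: the lowest bound was -0.64, for Pfkp, and the highest 0.52, for Hk2. For Pkm, Gpi1 and Aldoa they kept within 0.30 of 0 on the log2 scale.

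The genes fell into a few orders of the libraries. Hk1, Gpi1, Aldoa, Pgk1 and Ldha, 5 of the 9 genes, had their 2 highest values in Ground-3 and Space-1, which is the case for 23.5% of all tested genes. Hk2 and Pkm had theirs in Ground-1 and Space-3, which was the next most frequent pair among all genes. Hk2 and Pfkp had their 2 lowest values in Ground-3 and Space-1. With library totals in place of TMM, the 2 highest libraries were the same for these 7 genes. The members shared these orders with a large part of the transcriptome, and no label names what the libraries in question have in common.

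**Figure D3:**
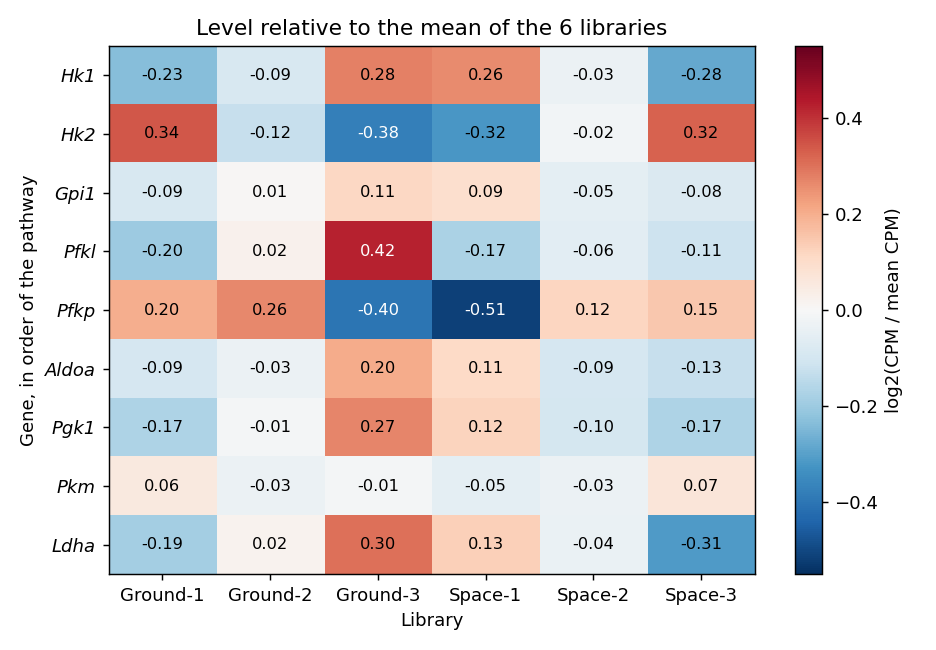
Log2 of the CPM in each library (columns) over the mean of the 6 libraries, for the 9 tested genes in pathway order (rows), with red above and blue below the mean. Hk1, Gpi1, Aldoa, Pgk1 and Ldha are red in Ground-3 and Space-1, in which Hk2 and Pfkp are blue, and no row splits Ground from Space.

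The spread of the genes over the 6 libraries is a description, with no test. The highest library was at least 1.5-fold above the lowest for 4 of the 9 genes, namely Pfkp (1.72-fold), Hk2 (1.65), Pfkl (1.54) and Ldha (1.53), beside 34.7% of all tested genes and 14.3% of tested genes with a mean of at least 5 CPM. The median ratio was 1.47 for the 9 genes, 1.31 for all tested genes and 1.22 for those with at least 5 CPM. The remaining ratios were 1.47 for Hk1, 1.36 for Pgk1, 1.26 for Aldoa, 1.15 for Gpi1 and 1.09 for Pkm.

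Etv5 and Bcl6b, transcription factor genes that GDNF is known to induce in spermatogonia, ran with Hk2 and against Hk1. Both are in the list of undifferentiated spermatogonia and were singled out after their values had been seen. Of the 9 genes of that list, 4 (Gfra1, Etv5, Bcl6b and Id4) were highest in Ground-1 and Space-3, and 2 (Nanos2 and Lin28a) were instead highest in Ground-3 and Space-1. Bcl6b was at 377.6, 209.5 and 58.0 CPM of the library total in Ground and at 58.0, 214.8 and 387.0 in Space. Etv5 was at 268.6, 190.2 and 91.4 in Ground and at 99.8, 192.1 and 272.9 in Space. Ground-1 and Space-3 were high and Ground-3 and Space-1 low for both genes, as for Hk2. Pearson's r of log2 CPM with Bcl6b over the 6 libraries was 0.93 for Hk2 and 0.94 for Pfkp, and -0.99 for Hk1, -0.97 for Gpi1, -0.95 for Aldoa, -0.95 for Pgk1 and -0.91 for Ldha. It was weaker for Pkm (0.70) and Pfkl (-0.52). These coefficients describe 6 libraries that share their depth and scaling, and no test was made of them. The share of all genes with coefficients of this size was not computed, so they cannot be read as particular to these genes. The summed feeder list did not follow this order: it was lowest in Space-1 (869 CPM) and highest in Ground-1 (1163), with 1065 in Ground-3 and 1053 in Space-3. Of its 18 genes, 5 were highest in Ground-1 and Space-3, among them Col5a1. Col5a1 was at 310.0, 257.2 and 233.6 CPM in Ground and 232.2, 280.0 and 319.4 in Space. Sums over low-level lists of other cells were also highest in Ground-1 and Space-3. The 4 endothelial genes summed to 22.8, 14.4 and 11.9 CPM in Ground and 11.6, 13.9 and 21.4 in Space. Of them, Cdh5, Kdr and Tek were highest in Ground-1 and Space-3, but Pecam1 was highest in Space-1 (8.92). The 5 macrophage genes summed to 23.5 in Ground-1 and 22.8 in Space-3. Nearly all of that was Cd68 (22.8 and 21.6), and 3 of the 5 stayed under 1 CPM in every library. Among all tested genes, Ground-1 and Space-3 were the next most frequent highest pair after Ground-3 and Space-1 (23.5%). The numbers of listed genes with either pair highest were not compared with the shares over all genes. They therefore cannot be read as particular to a cell type. The part of spermatogonial state and of feeder or other cells in the library differences was not tested.

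Pfkp had the largest SD of log2 CPM of the 9 genes (0.33). The 3 genes whose log2 CPM followed it most closely over the 6 libraries, among 13950 compared, were 9930012K11Rik (r = 0.999), Zbtb20 (r = 0.996) and Ddb2 (r = 0.996). As the highest of so many coefficients over 6 libraries, they describe a shared order of libraries only, and no test was made of them. Zbtb20 encodes a zinc finger repressor and Ddb2 a protein that recognises ultraviolet damage in DNA. For Pgk2, with 0 to 3 counts, no such likeness was computed.

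The make-up of each isozyme family was then compared as the share of its counts per kilobase (kb) of exon. Hk2 made up 86.7%, 81.2% and 73.6% of hexokinase in Ground and 74.6%, 81.5% and 86.8% in Space. The group means were 80.5 ± 6.58% in Ground and 81.0 ± 6.09% in Space (SD, n = 3; exact permutation p = 0.7). Nearly all of the rest was Hk1, at 12.7% to 25.9%. On this scale Pfkm, the muscle form and not 1 of the 10 genes, held 76.2% to 83.9% of phosphofructokinase in every library. The sizes of all shares depend on the length used. The exons annotated to Pfkp add up to 13401 bases, against 4145 in its longest coding transcript, and those of Pfkm to 3340 against 2879. This lowers Pfkp and raises Pfkm on the exon scale. Hk1 (8532 against 4278) is likewise lowered beside Hk2 (5969 against 5513), and Ldha (3310 against 1815) beside Ldhb (1570 against 1304). Pfkp held 9.29 ± 2.88% in Ground and 8.78 ± 2.70% in Space (SD, n = 3; exact permutation p = 0.8).

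Pgk2 made up 0.823%, 0.952% and 0.217% of phosphoglycerate kinase in Ground and 0.450%, 0.677% and 0% in Space, on the few counts given above. The means were 0.664 ± 0.392% and 0.376 ± 0.345% (SD, n = 3; exact permutation p = 0.4). The uncertain level of Pgk1 carries over to these shares. Ldha made up 60.1%, 52.2% and 53.3% of lactate dehydrogenase in Ground and 55.9%, 53.4% and 52.6% in Space. The means were 55.2 ± 4.25% and 54.0 ± 1.75% (SD, n = 3; exact permutation p = 0.9), with Ldhb, the heart form, at 32.1% to 38.4% and Ldhc at 7.65% to 13.3%. All 4 shares overlapped between the groups, and each had an adjusted p of 0.9 over the 4 two-sided exact permutation tests. With 3 libraries per group this exact permutation test cannot go below p = 0.1.

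**Figure D4:**
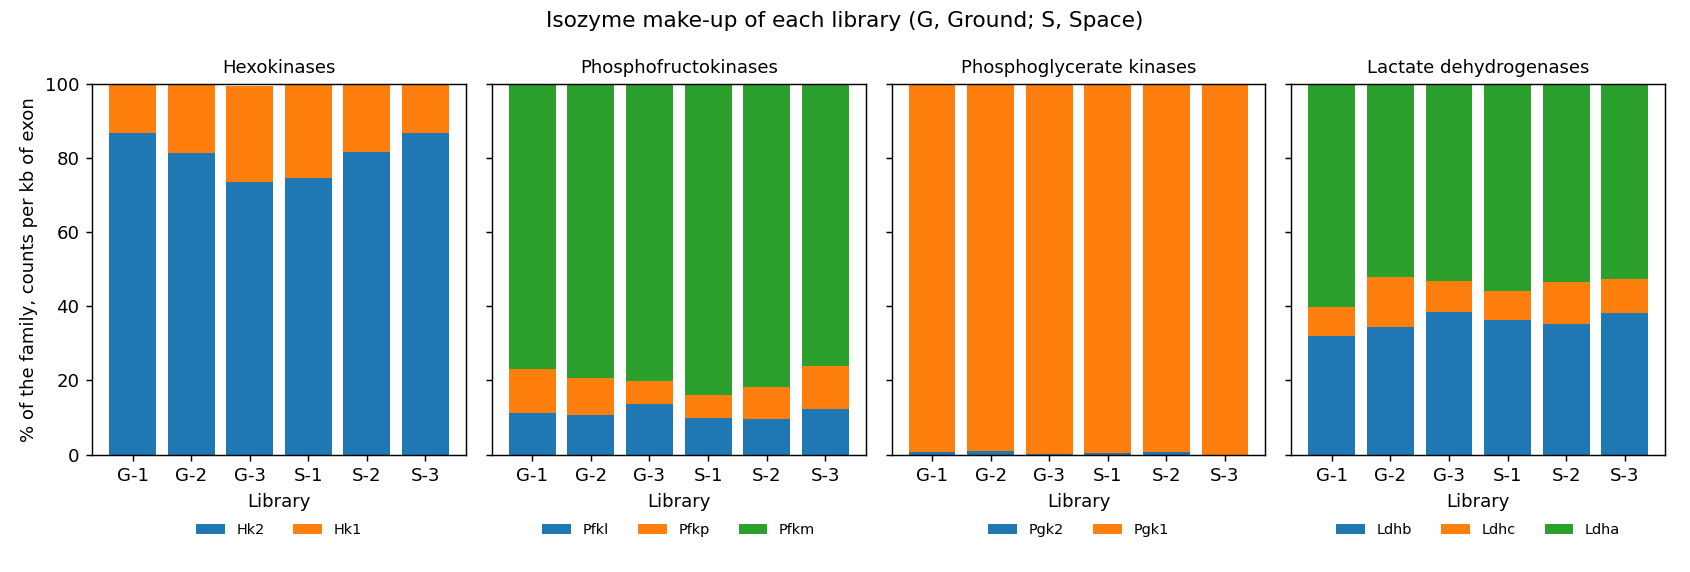
Stacked bars of each isozyme's share (vertical axis, % of counts per kb of exon) of its family in each Ground (G) and Space (S) library, for the 10 genes and for other isozymes above 0.5%. Hk2 fills 73.6% to 86.8% of hexokinase, Pfkm most of phosphofructokinase, Pgk1 at least 99.0% of phosphoglycerate kinase and Ldha 52.2% to 60.1% of lactate dehydrogenase, in both groups.

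Levels of different genes can be compared only per length. As mean CPM per kb of exon over the 6 libraries, the order was Pkm (217), Aldoa (91.5), Gpi1 (81.2), Hk2 (46.9), Ldha (18.1), Hk1 (10.5), Pgk1 (10.3), Pfkl (1.41), Pfkp (1.11) and Pgk2 (0.053). The values of Aldoa and Gpi1 overlapped over the libraries, as did those of Hk1 and Pgk1 and those of Pfkl and Pfkp. Within libraries, Aldoa was above Gpi1 in 6 of 6, Pfkl above Pfkp in 5 of 6 and Hk1 above Pgk1 in 3 of 6. The exons annotated to Pfkp add up to 13.4 kb, although its longest coding transcript has 4145 bases, which lowers its value on this scale. For Pfkl these lengths are 6675 and 3730 bases, for Gpi1 6452 and 2884, and for Aldoa 2911 and 1549. The order of Aldoa and Gpi1, and that of Pfkl and Pfkp, therefore depends on the length used.

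Sequence shared with other genes limits these levels unequally. Identical 76-base windows made up 67.5% of the Pgk1 transcript, 19.1% of Pkm, 16.5% of Pfkp, 14.5% of Gpi1, 5.0% of Ldha, 1.95% of Hk1 and 1.29% of Aldoa, and 0% of Hk2, Pfkl and Pgk2. With up to 3 mismatches the share rose to 59.0% for Pkm, 48.4% for Gpi1, 41.7% for Ldha and 34.3% for Aldoa, mostly through processed pseudogenes. The table holds 1 of the 9941 processed pseudogenes of GENCODE M21. Of the hexokinase pair compared above, Hk2 shares no window with another annotated gene, and Hk1 shares its windows with the antisense gene Hk1os.

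**Figure D5:**
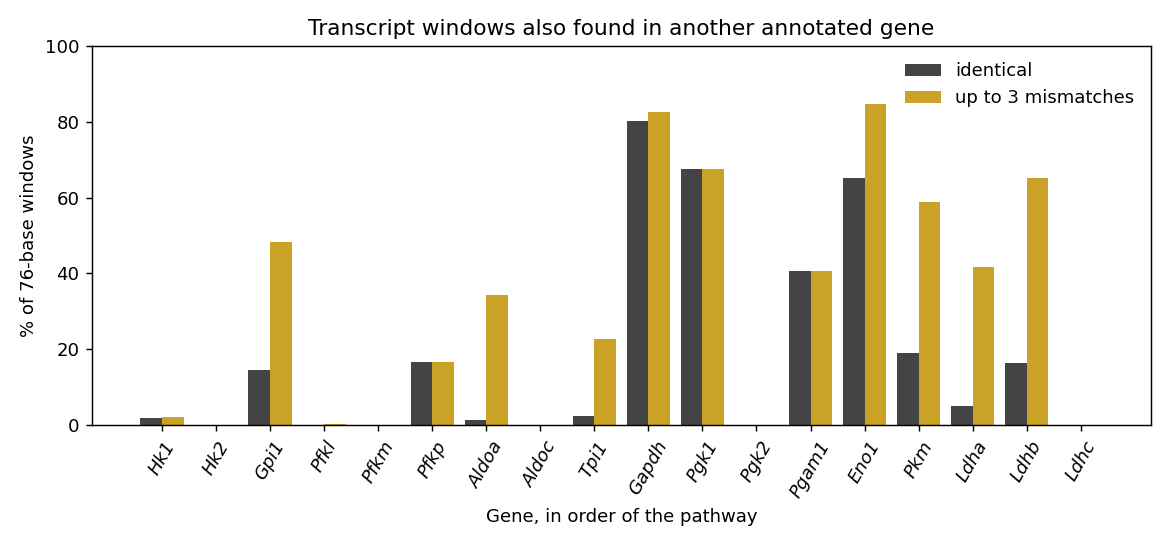
Share of 76-base transcript windows (vertical axis, %) that also occur in another annotated gene, identically (dark) or with up to 3 mismatches (yellow), for 18 glycolytic genes in pathway order. Gapdh, Pgk1 and Eno1 have the highest identical shares (80.2%, 67.5% and 65.2%), while Hk2, Pfkm and Pgk2 have none.

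No other gene of the pathway passed the test. Of the 65 other listed genes, 53 were tested, 0 were called by edgeR in either direction, and 0 had an unadjusted p under 0.05. Of the 53, 21 were higher and 32 lower in Space, with a median log2 fold change of -0.02. By list, 0 of 12 tested glycolytic enzymes and isozymes, 0 of 5 transporters of glucose and monocarboxylates, 0 of 10 genes that control flux, 0 of 12 of pyruvate entry, 0 of 7 of the pentose phosphate pathway and 0 of 4 of gluconeogenesis were called. The smallest unadjusted p was 0.119 by edgeR, for Pfkfb1, a kinase that makes the phosphofructokinase activator fructose 2,6-bisphosphate. It was at 5.43, 6.34 and 8.11 CPM in Ground and at 5.64, 4.85 and 5.24 in Space.

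Of the enzymes of the steps that lie between the members, Eno1 and Gapdh had the order of Aldoa and Ldha, and Tpi1 and Pgam1 did not. Eno1, an enolase, was at 229.9, 270.2 and 352.4 CPM in Ground and at 338.7, 267.7 and 231.0 in Space, so that Ground-3 and Space-1 were highest. Gapdh, which makes NADH, showed the same order at 410.2, 456.8 and 506.4 CPM in Ground and 499.4, 443.4 and 425.4 in Space. Both share most of their transcript with other annotated genes. Tpi1, which interconverts the trioses (66.2 to 79.5 CPM), and Pgam1, a phosphoglycerate mutase (91.9 to 100.3 CPM), were highest in Ground-3 and Ground-2. Egln3, an oxygen sensor that is itself induced by hypoxia-inducible factors, was at 10.91, 12.99 and 18.41 CPM in Ground and at 17.87, 12.04 and 9.999 in Space, again highest in Ground-3 and Space-1. Pdk1, a brake on pyruvate entry that responds to the same factors, was instead highest in Ground-1 and Space-3, at 217.4 and 217.3 CPM, against 183.1 to 200.2 CPM in the other libraries. Its range was 1.19-fold, against 1.84-fold for Egln3. Of the other listed genes that control flux, Egln1, Hif1a, Pfkfb3 (range 2.73-fold), Tigar and Vhl were also highest in both Ground-3 and Space-1. Egln2, Pfkfb1, Pfkfb2 and Pfkfb4 had other pairs of libraries highest. The part of hypoxia-inducible factors in these orders was not tested.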

How the data were processed

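The values deposited by the authors are raw counts of reads for each gene and library, with no pooling. Per the labels' processing notes, bcl2fastq 2.20, cutadapt 4.1, HISAT2 2.2.1 and HTSeq 2.0.2 were used with mm10. The study's methods name GENCODE M21 and a different library kit and sequencer. The strand setting and the treatment of reads shared between genes were not given in the sources used here.

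Counts were tested with edgeR 4.0.16 (R 4.3.3): filterByExpr, TMM scaling, 2-sided quasi-likelihood F test on group without a block, Benjamini-Hochberg adjustment over 15104 genes, threshold 0.05. The SE is the log2 fold change over the square root of F, and the prior count of log2 CPM was 2. Isozyme shares were compared by exact permutation. Some listed genes are not reported here. Transcript windows of 76 bases were aligned to GENCODE M21 with bwa 0.7.19. Motifs were searched in the 250 bases before RefSeq starts.

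In counts simulated for Space against Ground (15104 genes), the share of altered genes that edgeR found was 58.2% at 1.5-fold, 68.7% at 2-fold and 95.5% at 4-fold, beside 2 false calls. Each simulated gene was drawn independently, with the fitted spread of genes at its level and no library differences shared between genes. These shares may therefore be too high for the libraries themselves. Library pairs were checked for copies: none agreed within counting noise. The closest pairs crossed the groups. Their median chi-square was 1.55 times that expected from counting for Ground-1 with Space-3, 2.71 for Ground-3 with Space-1 and 2.83 for Ground-2 with Space-2. Pairs within a group lay at 5.97 to 12.0. The named genes are the 10 members, pathway genes needed to describe an isozyme family or germ cell form, and the 3 closest in pattern to the most variable member. Pathway genes of the last paragraph, Etv5 and Bcl6b were chosen after their values were seen. Members and lists were chosen with earlier results of these data known. Alternatives were other scalings, filters, DESeq2 1.42.0, limma-voom (limma 3.58.1), the replicate block and leaving out each library.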

Additional observations from a re-analysis of the deposited data

How the results depend on the processing

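The number of genes called was 0 in the fit as reported and in all 15 alternatives, while an unadjusted p under 0.05 was found for 45 to 192 genes, and 0 of the 9 tested members were called, or had an unadjusted p under 0.05, in any. Direction was less firm: of 81 member fold changes in alternatives that kept all libraries, 6 changed sign. Hk1 became 0.0020 with RLE scaling, 0.0010 without mitochondrially encoded genes, 0.0021 with DESeq2 and 0.034 with library totals, which also turned Pkm (0.025) and Gpi1 (0.012) and moved the median of all genes to 0.033. Library totals widened the ranges of Hk2 to 1.74-fold and of Pkm to 1.18-fold.

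Leaving out each library in turn changed the sign of 16 of 54 fold changes. The ranges were -0.15 to 0.17 for Hk1, -0.14 to 0.27 for Hk2, -0.079 to 0.034 for Gpi1, -0.28 to 0.083 for Pfkp, -0.14 to 0.035 for Aldoa, -0.18 to 0.051 for Pgk1, -0.047 to 0.016 for Pkm, -0.23 to 0.025 for Ldha and -0.35 to -0.02 for Pfkl. Without Ground-3, Hk1, Hk2, Gpi1, Aldoa, Pgk1 and Ldha changed sign together, Hk2 downward to -0.10 and Hk1 upward to 0.17. Shares, in percentage points, ranged from -2.97 to 3.66 for Hk2, -2.09 to 0.783 for Pfkp, -2.71 to 1.22 for Ldha and -0.511 to -0.100 for Pgk2. Shares per length of the longest coding transcript, an alternative chosen after seeing the data, and shares of plain counts kept their direction.

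The replicate numbers do not pair the libraries: same-numbered libraries correlated at -0.48, 0.28 and -0.60 over the 1000 most variable genes, and 2 of 6 libraries correlated best with their own number. The closest were Ground-1 with Space-3 (0.63) and Ground-3 with Space-1 (0.60), and the spread of the fit without a block includes these library differences. With the number as a replicate block, 0 genes (63 at an unadjusted p under 0.05) and 0 members were called, and exact sign-flip tests of the shares gave p = 0.75 for Hk2 (0.492 points), 0.75 for Pfkp (-0.511), 0.25 for Pgk2 (-0.288) and 0.75 for Ldha (-1.22), where 3 pairs cannot go below 0.25.

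Depth limits Pgk2 and, less so, Pfkl, with counting error up to 7.67% of a value.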
